A study of Mus musculus with 12 samples.

Results

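Regulatory CD4 T cells (Treg) were compared with naive CD4 T cells (Naive) over all genes of the deposited count table. The members are the 3 libraries whose column names mark Treg and the 3 whose names mark naive cells, 6 of the 12 RNA libraries in all. The series as a whole is about BATF, BIM (the product of Bcl2l11) and tolerant T cells. Spleen and lymph node were mixed, from C57BL/6 animals that were wildtype, polyclonal in their T cells, untreated and carried Foxp3-GFP. Treg were sorted as FOXP3+ CD25+ cells. Naive cells were sorted as CD44low. A pair of further subsets serves to place the differences: Anergic cells (CD44high, without FOXP3, high in CD73 and FR4, and NRP1+) and Teff (CD44high, without FOXP3, low in CD73 and FR4). Their libraries also entered the fit, so the filter, the scaling and the shared estimate of spread rest on all 12 libraries. No CD44 gate is given for Treg, and Naive cells were chosen for low CD44, so FOXP3 state and antigen experience cannot be told apart in this comparison. Whether the 3 libraries of a subset stand for different animals is not stated. Each p-value thus measures the spread among the libraries within the 4 subsets alone, and that spread may be technical.

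Treg are a lineage of CD4 T cells that restrains other immune cells. FOXP3 is their defining transcription factor, and CD25, the alpha chain of the IL-2 receptor, lets them take up IL-2 that other T cells make. Naive T cells have not yet met antigen. They recirculate through lymphoid organs with CCR7 and S1PR1, live on IL-7, and are kept quiescent by factors such as TCF1, LEF1, KLF2 and FOXO1.

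Total RNA was counted per gene, with 9527897, 7569734 and 8149238 counts in the Treg libraries and 7347708, 8008010 and 6909035 in the Naive libraries. Enough counts for testing were found for 13393 genes. Values are CPM, counts divided by library size after TMM scaling, a normalisation that takes most genes as level. They compare libraries for 1 gene and not genes with each other. The correlation of log2 CPM over the tested genes was 0.987 within Treg, 0.985 to 0.986 within Naive and 0.924 to 0.929 between the subsets. Mitochondrial ribosomal RNA took 12 ± 0.261% of counts in Treg and 10.3 ± 0.235% in Naive libraries (SD, n = 3 each). All ribosomal and small RNA, the mitochondrial included, took 28.3 ± 0.52% in Treg and 30.9 ± 1.76% in Naive libraries. With these genes removed, 4434 genes differed at an adjusted p under 0.05 by edgeR's quasi-likelihood test, against 4396 with them. Their part in the differences below was not tested beyond that fit. In bulk RNA fewer cells that make a transcript and less of it per cell cannot be told apart.

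The labels were checked first against the genes of the sort. Foxp3 (chromosome X, 7573644 to 7595245 in GRCm38) had 538, 531 and 562 CPM in Treg and 1.24, 1.61 and 1.21 CPM in Naive libraries (log2 fold change 8.62 ± 0.134 SE, adjusted p = 3.06e-23 by edgeR's quasi-likelihood test). Il2ra, which encodes CD25 (chromosome 2, 11642807 to 11693193), had 706, 663 and 761 CPM in Treg and 3.03, 1.61 and 1.97 CPM in Naive libraries (log2 fold change 8.33 ± 0.174 SE, adjusted p = 8.61e-21). The libraries of the subsets did not overlap for either gene. Treg were sorted on both proteins, so neither is a finding. No FOXP3 or CD25 gate is given for Naive cells, which were sorted as CD44low. Part of the annotated Foxp3 exons (18.6%) is shared with another gene on the same strand. Cd44 had 107, 119 and 123 CPM in Treg and 30.9, 34.6 and 40.4 CPM in Naive libraries, so the Treg libraries, for which no CD44 gate is given, stood higher (log2 fold change 1.73 ± 0.0931 SE, adjusted p = 2.97e-13). Treg libraries nevertheless lay below the CD44high subsets, which averaged 295 ± 8.62 CPM in Teff and 334 ± 33.2 CPM in Anergic cells (SD, n = 3 each). The genes of the proteins that gated the Anergic subset also differed. Nrp1, a co-receptor of semaphorins and a mark of thymus-derived Treg in mice, had 242, 269 and 249 CPM in Treg and 4, 3.97 and 2.43 CPM in Naive libraries. Izumo1r, which encodes FR4, had 293, 329.6 and 306 CPM in Treg and 48.5, 51.4 and 49.3 CPM in Naive libraries. Nt5e, which encodes the adenosine-forming ectoenzyme CD73, had 171, 191 and 191 CPM in Treg and 21, 17.2 and 19.9 CPM in Naive libraries. No gate on these proteins is given for Treg or Naive cells, and all of them were higher in every Treg library (log2 fold change 6.17, 2.63 and 3.25). The general T cell gene Cd3e did not pass the test, with 434, 442 and 459 CPM in Treg and 412, 471 and 453 CPM in Naive libraries (adjusted p = 0.999).

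Of the 13393 genes, 4396 (32.8%) differed at an adjusted p under 0.05, and these are called below. Of them 2538 (19%) were higher and 1858 (13.9%) lower in Treg. The higher genes moved further: their median log2 fold change was 1.04, against -0.47 for the lower genes. At a change of at least 2-fold (12.4%) 1292 genes (9.65%) were higher and 363 (2.71%) lower. At 8-fold or more (3.82%), 474 genes were higher and 38 lower. The 3 Treg libraries did not overlap the 3 Naive libraries in 44.9% of genes. Low expression in Naive cells accompanied the large changes, since 655 of the higher genes averaged under 1 CPM in Naive libraries and 82 of them had 0 Naive counts. Among genes with at least 10 CPM in the higher subset, 135 were 8-fold or more higher and 18 were as much lower. When genes were divided into 4 groups of equal size by mean level, the top group held more lower genes, with 635 higher and 886 lower. Changes of at least 2-fold in that group still numbered 107 higher and 49 lower. The share called rose with level, from 25.2% in the lowest group to 45.4% in the top group. Counts for gene lists below are to be read against these shares. When libraries were scaled by total counts alone the split over all genes was 2925 higher and 1126 lower, with a median log2 fold change of 0.09 over all genes in place of 0.00.

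**Figure D1:**
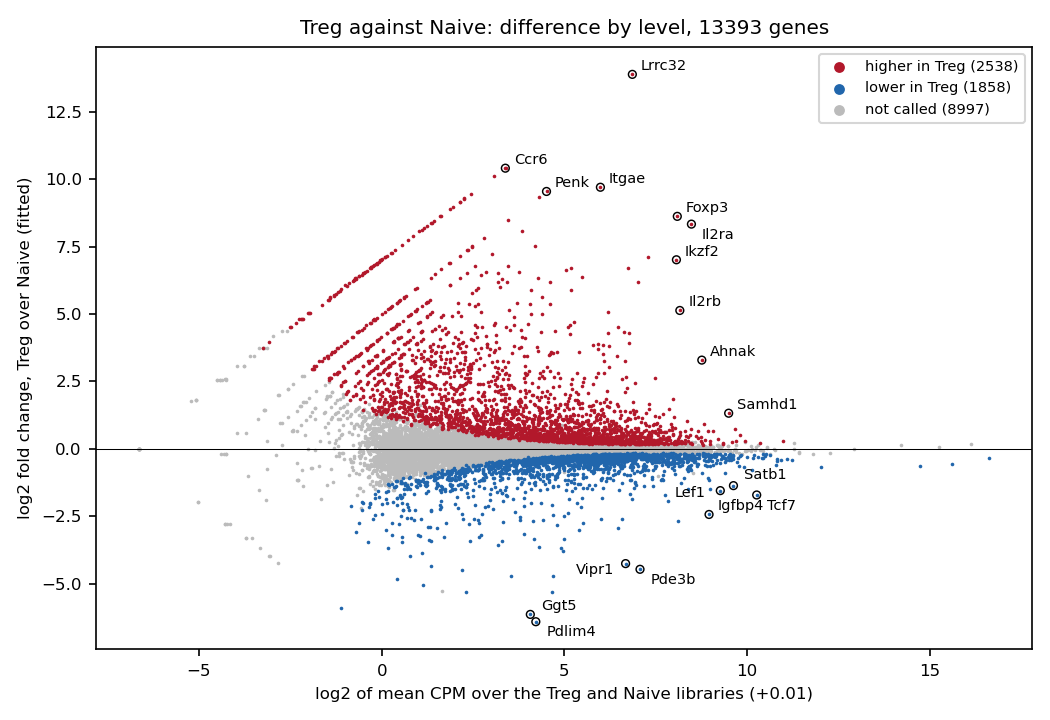
Fitted log2 fold change (Treg over Naive, vertical axis) against log2 of the mean CPM over the 6 libraries (horizontal axis) for the 13393 tested genes, 1 point per gene. Red points are the 2538 genes called higher in Treg and blue points the 1858 called lower; the red cloud reaches much further from 0, and the straight rows of red points at low level are genes with 0 or few Naive counts, whose fitted values depend on a prior count and are not bounds.

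The 10 highest log2 fold changes at 10 CPM or more belonged to genes with 0 to 3 counts over the 3 Naive libraries, apart from Foxp3, and several encode surface receptors or secreted proteins. Lrrc32 (chromosome 7, 98489283 to 98502181) encodes GARP, the receptor that holds latent TGF-beta on the Treg surface. It had 223, 236 and 238 CPM in Treg and 0 in each Naive library. With 3 counts over the 3 Naive libraries as the floor, it was at least 1692-fold higher. Ccr6, a chemokine receptor of mucosal and effector T cells, had 19.9, 20.9 and 21.8 CPM in Treg and 0 in each Naive library and was at least 152-fold higher. Itgae, which encodes CD103, the integrin chain that binds E-cadherin on epithelium, had 101, 131 and 147 CPM in Treg and 0.276, 0 and 0.152 CPM in Naive libraries, a ratio of 914-fold (95% counting interval 312 to 4432). Intervals and floors cover counting error only. Penk, the precursor of enkephalin peptides, had 40.8, 46.9 and 48.8 CPM in Treg and 0.138, 0 and 0 CPM in Naive libraries, a ratio of 991-fold (95% counting interval 177 to 39166). Sdc4, a heparan sulfate proteoglycan, had 32.9, 41.9 and 42.4 CPM in Treg and 0, 0 and 0.152 CPM in Naive libraries, a ratio of 848-fold (95% counting interval 152 to 33538). Fgl2, whose product is a secreted suppressor of T cells and dendritic cells, had 18.4, 22.9 and 24.2 CPM in Treg and 0, 0.124 and 0 CPM in Naive libraries, a ratio of 474-fold (95% counting interval 84.8 to 18760.1). In all of these the lowest Treg library stood far above the highest Naive library. Gbp2b, a guanylate-binding protein gene, had 16.4, 24.8 and 22.1 CPM in Treg and 0 in each Naive library and was at least 152-fold higher, although near-identical copies of this family may share reads. Fam160a1 had 14.2, 17.5 and 19.2 CPM in Treg and 0 in each Naive library and was at least 123-fold higher. Cep112, a centrosomal protein gene, had 5.05, 13.6 and 14.2 CPM in Treg and 0 in each Naive library and was at least 77.2-fold higher, with the first Treg library well below the other two. Foxp3 was the remaining gene of the 10.

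The lowest log2 fold changes were smaller and none of the 10 genes was at 0 in Treg. Pdlim4, which encodes an actin-associated LIM protein, had 0.303, 0.38 and 0.588 CPM in Treg and 34.6, 32.6 and 43.1 CPM in Naive libraries (log2 fold change -6.40 ± 0.279 SE, adjusted p = 4.77e-15). Ggt5, which encodes an enzyme of glutathione and leukotriene metabolism, had 0.606, 0.507 and 0.235 CPM in Treg and 33, 31.6 and 34.6 CPM in Naive libraries (log2 fold change -6.13 ± 0.239 SE, adjusted p = 5.80e-16). Atp8b4, a phospholipid flippase gene, had 0.909, 2.03 and 0.941 CPM in Treg and 48.7, 48.9 and 51.3 CPM in Naive libraries (log2 fold change -5.29 ± 0.186 SE, adjusted p = 8.51e-17). These 3 genes were close to silent in every Treg library and moderately expressed in every Naive one. Pde3b, a phosphodiesterase that degrades cyclic AMP, had 9.2, 13.2 and 12.9 CPM in Treg and 234, 266 and 270.0 CPM in Naive libraries (log2 fold change -4.46 ± 0.155 SE, adjusted p = 6.28e-17). Vipr1, a receptor for vasoactive intestinal peptide that raises cyclic AMP, had 10.7, 11 and 8.82 CPM in Treg and 197, 186 and 199 CPM in Naive libraries (log2 fold change -4.25 ± 0.11 SE, adjusted p = 2.41e-19). Both genes of cyclic AMP signalling thus kept a measurable level in Treg. App, the amyloid precursor protein gene, had 1.41, 2.66 and 1.76 CPM in Treg and 46.9, 50.7 and 52.2 CPM in Naive libraries (log2 fold change -4.70). Lypd6b had 0.808, 0.76 and 0.941 CPM in Treg and 22.1, 20.8 and 24.3 CPM in Naive libraries (log2 fold change -4.71). Dapl1, long known as a transcript of naive T cells, had 4.75, 2.53 and 5.17 CPM in Treg and 55, 64.4 and 55.7 CPM in Naive libraries. Hs3st3b1, a heparan sulfate sulfotransferase gene, had 3.54, 4.05 and 5.64 CPM in Treg and 54.7, 54.9 and 56.6 CPM in Naive libraries. Slc16a5, a monocarboxylate transporter gene, had 3.23, 3.55 and 1.88 CPM in Treg and 35.7, 37.5 and 36.1 CPM in Naive libraries. Dapl1, Hs3st3b1 and Slc16a5 were lower by log2 fold changes of -3.79, -3.66 and -3.65, and in no gene of the 10 did the libraries of the subsets overlap.

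**Figure D2:**
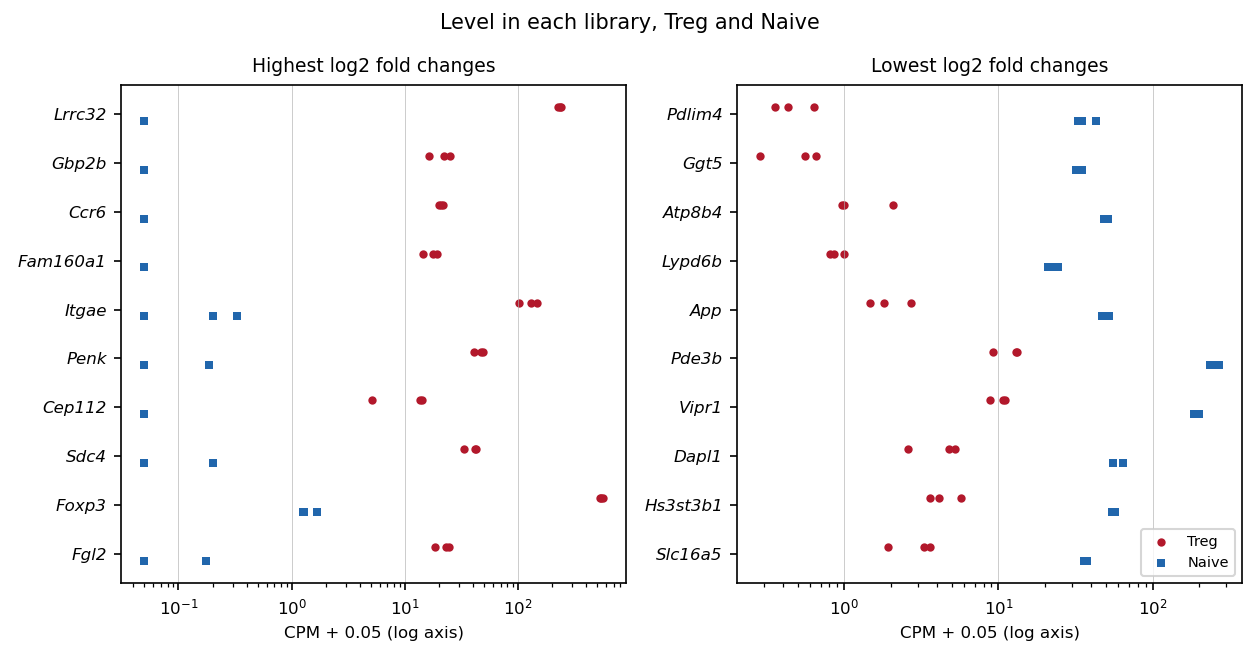
CPM plus 0.05 on a log axis in each of the 3 Treg libraries (red circles) and 3 Naive libraries (blue squares) for the 10 genes with the highest (left) and the 10 with the lowest (right) log2 fold changes at 10 CPM or more. The libraries of the subsets do not overlap in any gene, and blue squares at the left edge of the left panel are libraries with 0 counts.

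Ranked by the difference in mean CPM, the gains were led by Il2ra, Ahnak, Samhd1, Foxp3 and Il2rb. Ahnak, a giant scaffold protein, had 731, 819 and 810.0 CPM in Treg and 82, 80.7 and 78.3 CPM in Naive libraries (log2 fold change 3.29 ± 0.0826 SE, adjusted p = 1.82e-19). Samhd1, an enzyme that breaks down deoxynucleotides, had 1014, 1023 and 1057 CPM in Treg and 403, 405 and 428 CPM in Naive libraries (log2 fold change 1.32 ± 0.0687 SE, adjusted p = 1.41e-13). Samhd1 was thus abundant in both subsets and changed by much less than Ahnak. The largest losses were in Lars2, Tcf7, Tpt1, Satb1 and Igfbp4. Igfbp4, a binding protein of insulin-like growth factors, had 139, 156 and 173 CPM in Treg and 790.2, 908 and 818 CPM in Naive libraries (log2 fold change -2.43 ± 0.132 SE, adjusted p = 3.48e-13). Tpt1, which encodes translationally controlled tumour protein, had 2013, 2019.6 and 2145 CPM in Treg and 2581, 2768 and 2919.5 CPM in Naive libraries (log2 fold change -0.42 ± 0.0754 SE, adjusted p = 9.47e-05). Lars2, the mitochondrial leucyl-tRNA synthetase gene, had 2417, 3786 and 3377 CPM in Treg and 5619.9, 4131 and 5618 CPM in Naive libraries (log2 fold change -0.68 ± 0.168 SE, adjusted p = 0.00262). The libraries of the subsets did not overlap for Tpt1 or Lars2, though they came close for Lars2. The mean share of ribosomal and small RNA was also lower in Treg (28.3 against 30.9%). Whether such reads enter the Lars2 count was not tested.

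Genes known for Treg were higher as a block. All 25 listed Treg core genes were tested, and 25 were called higher and none lower, with a median log2 fold change of 6.00 when genes at 0 in Naive are held at their bound, against 0.00 over all genes tested. The list includes Foxp3, Il2ra and Nrp1, whose proteins sorted these or other subsets, and its members were chosen as known Treg genes, so its direction is not independent evidence. Ikzf2, which encodes the transcription factor Helios, had 525, 529.6 and 540.5 CPM in Treg and 5.38, 2.85 and 4.25 CPM in Naive libraries (log2 fold change 7.01 ± 0.157 SE, adjusted p = 2.53e-20). Its relative Ikzf4, which encodes Eos, had 109, 105 and 94.2 CPM in Treg and 8.27, 6.57 and 6.53 CPM in Naive libraries (log2 fold change 3.85 ± 0.141 SE, adjusted p = 1.78e-16). Ctla4, which encodes the inhibitory receptor that strips B7 ligands from antigen-presenting cells, had 29.7, 24.7 and 26.8 CPM in Treg and 1.79, 1.36 and 0.607 CPM in Naive libraries (log2 fold change 4.39 ± 0.323 SE, adjusted p = 8.52e-11). The smallest change of the list was that of Tnfrsf18, which encodes GITR, with 167, 189 and 183 CPM in Treg and 28.3, 29.5 and 26.4 CPM in Naive libraries (log2 fold change 2.67 ± 0.0797 SE, adjusted p = 3.41e-18). Klrg1, a receptor of differentiated effector Treg, had 4.75, 10.4 and 13.6 CPM in Treg and 0 in each Naive library and was at least 68.1-fold higher, with the first Treg library again the lowest.

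Of 16 genes for suppressive molecules 15 were tested, and 14 were called higher and 1 lower. Besides Lrrc32, the TGF-beta genes included Itgb8, an integrin chain that activates the latent cytokine, with 34.3, 37.9 and 36.9 CPM in Treg and 0, 0.248 and 0.304 CPM in Naive libraries (log2 fold change 7.52 ± 0.366 SE, adjusted p = 4.14e-14). Tgfb1 itself had 164, 157 and 169 CPM in Treg and 111, 124 and 127 CPM in Naive libraries and was 1.35-fold higher (log2 fold change 0.44 ± 0.0741 SE, adjusted p = 4.85e-05). Itgb8 was thus near 0 in Naive libraries, while Tgfb1 was read in both subsets. The anti-inflammatory cytokine gene Il10 had 3.74, 6.21 and 5.53 CPM in Treg and 0 in each Naive library and was at least 36.9-fold higher. Ebi3, a subunit of IL-27 and IL-35, had 5.36, 4.94 and 5.88 CPM in Treg and 0 in each Naive library and was at least 39.4-fold higher. Il12a, the other IL-35 subunit gene, had 0 counts in all 6 libraries. Entpd1, which encodes the ectonucleotidase CD39 that acts upstream of CD73, had 31.3, 34.3 and 34.4 CPM in Treg and 0.827, 0.496 and 0.304 CPM in Naive libraries (log2 fold change 5.89 ± 0.271 SE, adjusted p = 1.38e-14). Gzmb, the granzyme B gene, had 2.32, 6.08 and 5.76 CPM in Treg and 0 in each Naive library and was at least 33.3-fold higher. The member called lower was Prf1, the perforin gene, with 8.39, 6.97 and 9.17 CPM in Treg and 33.2, 31.5 and 33.7 CPM in Naive libraries (fold change 3.99, adjusted p = 6.93e-11).

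The IL-2 receptor and STAT5 list holds the receptor chains, their kinases and the targets of the pathway, and 10 of its 16 tested members were called higher and 2 lower. Besides Il2ra, the shared beta chain of the IL-2 and IL-15 receptors stood out: Il2rb had 567, 547 and 553 CPM in Treg and 19, 13.9 and 14.7 CPM in Naive libraries (log2 fold change 5.13 ± 0.0882 SE, adjusted p = 1.55e-22). The common gamma chain gene Il2rg did not pass, with 155, 162 and 177 CPM in Treg and 166, 178 and 190.5 CPM in Naive libraries (adjusted p = 0.355). Of the 3 receptor chains, the alpha and beta chains thus passed the test and the gamma chain did not. Of 4 feedback inhibitors in the list, Cish, Socs1 and Socs2 were higher and Socs3 did not pass. Cish, which STAT5 is known to induce, had 146, 138 and 129.7 CPM in Treg and 8.69, 10.9 and 10 CPM in Naive libraries (log2 fold change 3.80 ± 0.108 SE, adjusted p = 1.71e-18). Socs1 had 50.5, 50.2 and 49.7 CPM in Treg and 29.2, 30.9 and 24.3 CPM in Naive libraries (log2 fold change 0.83 ± 0.103 SE, adjusted p = 5.63e-07). Socs2 had 28.7, 27.6 and 30 CPM in Treg and 0, 0.248 and 0 CPM in Naive libraries, a ratio of 315-fold (95% counting interval 87 to 2609). Socs3 had 123, 117 and 109 CPM in Treg and 110.2, 111 and 93.8 CPM in Naive libraries (adjusted p = 0.33). Stat5a was higher, with 99.4, 93.6 and 87.9 CPM in Treg and 58.5, 57.9 and 62.4 CPM in Naive libraries (log2 fold change 0.66 ± 0.0751 SE, adjusted p = 1.70e-07). Stat5b, its paralogue, did not pass, with 239.9, 219.9 and 226 CPM in Treg and 215, 201 and 208 CPM in Naive libraries (adjusted p = 0.099). The members called lower were Pim2, a survival kinase gene, with 14.1, 16.8 and 11.3 CPM in Treg and 30.9, 26.3 and 27.8 CPM in Naive libraries (log2 fold change -1.01 ± 0.133 SE, adjusted p = 1.55e-06), and Jak1. Jak1, a kinase of the receptor, had 843, 835 and 843 CPM in Treg and 976, 966 and 980.5 CPM in Naive libraries (log2 fold change -0.21 ± 0.0575 SE, adjusted p = 0.00546). The Jak1 call ended under scaling by total counts (adjusted p = 0.131 at a log2 fold change of -0.13, within 1.57e-05 to 0.131 over the alternatives). Il2 itself had 1 count in the Treg and 0 in the Naive libraries.

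Genes that keep naive cells quiescent and in circulation were mostly lower. Of 25 listed genes 24 were tested, and 18 were called lower and 2 higher, with a median log2 fold change of -0.40. Tcf7, which encodes TCF1 (chromosome 11, 52252371 to 52283014), had 609, 558 and 562 CPM in Treg and 1862, 1857 and 1922 CPM in Naive libraries (log2 fold change -1.71 ± 0.0643 SE, adjusted p = 3.15e-16). Its partner Lef1 had 314, 312 and 317 CPM in Treg and 923, 882 and 947 CPM in Naive libraries (log2 fold change -1.55 ± 0.0637 SE, adjusted p = 1.77e-15). Satb1, a chromatin organiser of T cell development, had 451, 429 and 449 CPM in Treg and 1173, 1134 and 1105 CPM in Naive libraries (log2 fold change -1.36 ± 0.0975 SE, adjusted p = 5.46e-11). All 3 transcription factor genes were lower in every Treg library and still well above 0 there. Actn1, an actin cross-linker, had 276, 266 and 257 CPM in Treg and 701, 753 and 797 CPM in Naive libraries (log2 fold change -1.49 ± 0.11 SE, adjusted p = 9.28e-11). The forkhead factors of quiescence moved little. Foxo1 had 339, 332 and 343 CPM in Treg and 395, 362 and 399 CPM in Naive libraries (log2 fold change -0.19). Foxp1 had 362, 334 and 336 CPM in Treg and 443, 399 and 386 CPM in Naive libraries (log2 fold change -0.25). Klf2 had 319, 324 and 352 CPM in Treg and 385, 433 and 442 CPM in Naive libraries (log2 fold change -0.34). Bach2, a repressor of effector genes, had 135, 126 and 126 CPM in Treg and 196, 169 and 166 CPM in Naive libraries (log2 fold change -0.45). These 4 genes were called lower, each by less than 1.5-fold. The Foxo1 call ended without Naive replicate 1 (adjusted p = 0.0682), Treg replicate 2 (adjusted p = 0.0729) or Naive replicate 3 (adjusted p = 0.0839). Scaling by total counts ended the calls of Foxo1 (adjusted p = 0.291 at a log2 fold change of -0.10) and Foxp1 (adjusted p = 0.135 at a log2 fold change of -0.17). The members called higher were Id3, an inhibitor of E proteins, with 23.4, 27.6 and 26.7 CPM in Treg and 13.2, 19.6 and 19.4 CPM in Naive libraries (log2 fold change 0.57 ± 0.137 SE, adjusted p = 0.00212), and Ccr9. Ccr9, a gut and thymus homing receptor gene, had 14, 14.7 and 15.3 CPM in Treg and 4, 4.21 and 1.67 CPM in Naive libraries (log2 fold change 2.12 ± 0.205 SE, adjusted p = 1.09e-08).

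Promoter sequences of the named genes were read from RefSeq in windows of 250 bases before to 50 bases after an annotated start (GRCm38.p6), because FOXP3, FOXO1 and FOXP1 all belong to the forkhead family. A window was available for 104 of the 144 named genes, and the forkhead letters TGTTTAC, searched on both strands, stood in 5 of them: Il1rl1, Dapl1, Tcf7, Bcl2l11 and Junb. The windows of the 3 that changed at least 2-fold are shown, on the strand of the gene, with the match in capitals (it reads GTAAACA on that strand). Il1rl1, the IL-33 receptor gene, was higher in Treg, at chr1:40439379-40439678 on the + strand. Dapl1 was lower, at chr2:59484403-59484702 on the + strand, and Tcf7 was lower, at chr11:52282546-52282845 on the - strand.
Il1rl1: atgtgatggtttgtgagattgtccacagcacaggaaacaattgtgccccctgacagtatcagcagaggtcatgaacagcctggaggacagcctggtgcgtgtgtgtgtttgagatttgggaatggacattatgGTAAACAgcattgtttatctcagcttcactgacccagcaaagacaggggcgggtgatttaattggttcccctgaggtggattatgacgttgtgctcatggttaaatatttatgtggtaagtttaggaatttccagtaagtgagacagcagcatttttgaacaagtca
Dapl1: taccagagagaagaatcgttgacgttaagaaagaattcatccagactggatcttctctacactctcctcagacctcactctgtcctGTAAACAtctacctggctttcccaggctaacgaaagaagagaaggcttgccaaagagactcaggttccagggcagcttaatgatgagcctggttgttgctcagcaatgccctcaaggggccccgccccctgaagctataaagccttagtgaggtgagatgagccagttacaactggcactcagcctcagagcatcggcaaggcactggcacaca
Tcf7: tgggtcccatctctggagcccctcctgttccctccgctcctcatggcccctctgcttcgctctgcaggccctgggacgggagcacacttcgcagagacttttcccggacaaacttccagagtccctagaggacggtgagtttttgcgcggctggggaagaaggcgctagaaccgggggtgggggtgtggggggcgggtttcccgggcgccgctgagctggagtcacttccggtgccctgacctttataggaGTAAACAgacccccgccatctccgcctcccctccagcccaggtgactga
The match begins at base 134 of the Il1rl1 window, base 87 of the Dapl1 window and base 252 of the Tcf7 window. In Tcf7 that is 1 base past the annotated start of the window shown. Il1rl1 and Tcf7 each have another window, at the outermost start of the gene, without the letters (chr1:40429320-40429619 and chr11:52282965-52283264). Their windows shown thus lie at inner starts, and which start these cells used was not tested. Il1rl1 had 9.7, 10.1 and 13.3 CPM in Treg and 0, 0 and 0.152 CPM in Naive libraries, a ratio of 241-fold (95% counting interval 42.9 to 9544). Neither of the 2 Foxp3 windows held the letters. Over all genes the motif was rare: it stood in a window of 4.39% of the 888 genes called higher at least 2-fold, 4.72% of the 212 called lower at least 2-fold and 3.19% of all 8871 tested genes with a window. An AP-1 motif (TGANTCA) stood in 9.12% of the higher, 6.6% of the lower and 5.73% of all genes. For STAT (TTCNNNGAA) the shares were 10.1%, 8.49% and 8.4%, for RUNX (TGTGGT) 18%, 16.5% and 15.3%. For TCF and LEF (CTTTGAA) they were 6.19%, 4.72% and 4.6% and for KLF (CCACACCC) 6.31%, 4.72% and 4.55%. A gene with more windows has more chances of a match. Per window, the forkhead shares were 3.46% for higher, 3.28% for lower and 2.63% for all genes. For AP-1 they were 7.36%, 4.92% and 4.76%, and for STAT 8.23%, 5.9% and 6.94%. For RUNX they were 14.7%, 12.5% and 12.9%, for TCF and LEF 4.94%, 3.61% and 3.78%, and for KLF 5.11%, 3.61% and 3.74%. Lower genes thus lay below all genes per window for STAT, RUNX, TCF and LEF, and KLF. A match is a description of letters, binding was not measured here, and the shares were given no test.

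Among 26 lineage and effector transcription factors, all tested, 18 were called higher and 4 lower, with a median log2 fold change of 1.57. Maf, a driver of IL-10 in T cells, had 149, 167 and 163 CPM in Treg and 14.1, 15.2 and 15.2 CPM in Naive libraries (log2 fold change 3.43 ± 0.0995 SE, adjusted p = 2.17e-18). Ahr, the aryl hydrocarbon receptor gene, had 23.5, 24.2 and 21 CPM in Treg and 1.93, 1.36 and 1.52 CPM in Naive libraries (log2 fold change 3.83 ± 0.188 SE, adjusted p = 4.58e-14). Irf4, a factor of effector Treg, had 57.6, 64.6 and 62.2 CPM in Treg and 13.9, 15.7 and 9.26 CPM in Naive libraries (log2 fold change 2.22 ± 0.128 SE, adjusted p = 9.72e-13). Prdm1, which encodes BLIMP1, had 19.4, 24.7 and 30.2 CPM in Treg and 5.38, 6.44 and 5.92 CPM in Naive libraries (log2 fold change 2.06 ± 0.189 SE, adjusted p = 4.48e-09). Batf, a partner of IRF4 that the series title names, had 30.7, 47 and 35.3 CPM in Treg and 16.3, 19.6 and 17.9 CPM in Naive libraries (log2 fold change 1.06 ± 0.132 SE, adjusted p = 6.25e-07). All of these stood above Naive in every Treg library. Hopx, a co-repressor lacking DNA contacts of its own, had 44.3, 47.3 and 39.6 CPM in Treg and 6.2, 2.97 and 2.58 CPM in Naive libraries (log2 fold change 3.47 ± 0.176 SE, adjusted p = 9.28e-14). The members called lower were Ikzf1, Id2, Runx3 and Zbtb7b. Ikzf1, which encodes Ikaros, had 327, 298 and 315 CPM in Treg and 672, 639 and 662 CPM in Naive libraries (log2 fold change -1.07 ± 0.0665 SE, adjusted p = 3.92e-12). Id2, an inhibitor of E proteins, had 14.7, 15.5 and 14.1 CPM in Treg and 32.5, 30.2 and 29.9 CPM in Naive libraries (log2 fold change -1.07 ± 0.087 SE, adjusted p = 5.20e-10). The regulators Runx3 and Zbtb7b, which take opposite sides in the choice between the CD8 and CD4 lineages, were lower by log2 fold changes of -0.92 and -0.24, and scaling by total counts ended the Zbtb7b call (adjusted p = 0.148 at a log2 fold change of -0.16). Of the Ikaros family, then, Ikzf2, Ikzf3 and Ikzf4 were higher and Ikzf1 was lower, with log2 fold changes of 7.01, 1.17, 3.85 and -1.07. The remaining 4 members did not pass.

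Receptors that costimulate T cells, many of the TNF receptor family, were mostly higher. All 13 listed were tested, and 11 were called higher and 1 lower. Tnfrsf4, which encodes OX40, had 161, 169 and 178 CPM in Treg and 8.27, 6.94 and 6.68 CPM in Naive libraries (log2 fold change 4.53 ± 0.114 SE, adjusted p = 1.82e-19). Tnfrsf9, which encodes 4-1BB, had 93.7, 122 and 119 CPM in Treg and 9.1, 9.05 and 7.44 CPM in Naive libraries (log2 fold change 3.70 ± 0.123 SE, adjusted p = 2.61e-17). Tnfrsf1b, which encodes TNFR2, had 188, 208 and 223 CPM in Treg and 37, 36.1 and 40.1 CPM in Naive libraries (log2 fold change 2.45 ± 0.102 SE, adjusted p = 2.06e-15). Icos had 12.7, 18 and 17.6 CPM in Treg and 5.24, 2.85 and 5.16 CPM in Naive libraries (log2 fold change 1.88 ± 0.218 SE, adjusted p = 2.17e-07). Cd28 did not pass, with 11.1, 10 and 9.99 CPM in Treg and 11.6, 11.9 and 12 CPM in Naive libraries (adjusted p = 0.397). The member called lower was Tnfrsf14, the HVEM gene, with 30.1, 30.3 and 30.1 CPM in Treg and 38.9, 34.1 and 41.7 CPM in Naive libraries (log2 fold change -0.34 ± 0.108 SE, adjusted p = 0.0177). Its call ended without Naive replicate 1 (adjusted p = 0.0509 at a log2 fold change of -0.33) and without Naive replicate 3 (adjusted p = 0.094 at a log2 fold change of -0.28). Scaling by total counts ended it too (adjusted p = 0.133 at a log2 fold change of -0.25, within 0.0056 to 0.133 over the alternatives). Of 12 inhibitory receptor genes 10 were tested, and 7 were called higher and 2 lower. Tigit had 40.1, 52.8 and 50.4 CPM in Treg and 0.414, 0.62 and 0.911 CPM in Naive libraries (log2 fold change 6.19 ± 0.274 SE, adjusted p = 6.48e-15). Pdcd1, which encodes PD-1, had 26.9, 32.7 and 26.2 CPM in Treg and 4.41, 4.09 and 3.04 CPM in Naive libraries (log2 fold change 2.87 ± 0.155 SE, adjusted p = 2.83e-13). Lag3 had 22, 27.4 and 26.6 CPM in Treg and 2.62, 1.24 and 1.82 CPM in Naive libraries (log2 fold change 3.74 ± 0.329 SE, adjusted p = 2.07e-09). Lair1, a collagen receptor gene, was lower, with 1.52, 1.39 and 1.41 CPM in Treg and 7.17, 9.05 and 6.68 CPM in Naive libraries (log2 fold change -2.40 ± 0.258 SE, adjusted p = 6.24e-08). Vsir, which encodes VISTA, was also called lower, with 199.6, 190.3 and 209.5 CPM in Treg and 236, 252 and 235 CPM in Naive libraries (log2 fold change -0.27 ± 0.0638 SE, adjusted p = 0.00162). Scaling by total counts ended that call (adjusted p = 0.0827 at a log2 fold change of -0.19, within 9.64e-05 to 0.0827 over the alternatives).

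Cytokine receptor genes went both ways, with 9 of 22 tested members called higher and 6 lower, and a median log2 fold change of 0.05. In this list 68.2% were called, against 32.8% over all genes. The TGF-beta receptors split. Tgfbr1, the signalling type I chain, had 94.2, 98.3 and 96.9 CPM in Treg and 31.3, 31.6 and 26.6 CPM in Naive libraries (log2 fold change 1.69 ± 0.0901 SE, adjusted p = 2.41e-13). The ligand-binding type II chain Tgfbr2 had 206, 206 and 188 CPM in Treg and 425, 414 and 411 CPM in Naive libraries (log2 fold change -1.06 ± 0.062 SE, adjusted p = 1.29e-12). The co-receptor Tgfbr3, or betaglycan, had 23.5, 18.4 and 20.1 CPM in Treg and 160.2, 149.9 and 161 CPM in Naive libraries (log2 fold change -2.91 ± 0.0922 SE, adjusted p = 1.11e-17). The IL-7 receptor gene Il7r had 105, 129 and 138 CPM in Treg and 299.7, 250.3 and 281 CPM in Naive libraries (log2 fold change -1.16 ± 0.109 SE, adjusted p = 6.81e-09). Il10ra, the ligand-binding chain of the IL-10 receptor, had 64.7, 66.6 and 63.8 CPM in Treg and 16.3, 14.4 and 14.9 CPM in Naive libraries (log2 fold change 2.10 ± 0.13 SE, adjusted p = 3.49e-12). Its second chain Il10rb had 44.1, 48 and 48.6 CPM in Treg and 22.3, 22.9 and 19.6 CPM in Naive libraries (log2 fold change 1.11 ± 0.096 SE, adjusted p = 1.51e-09). The interferon-gamma receptor also split. Ifngr1 had 157, 175 and 179 CPM in Treg and 68, 67.8 and 66.9 CPM in Naive libraries (log2 fold change 1.33). Ifngr2 had 36.8, 35.7 and 29.6 CPM in Treg and 47, 46.5 and 47.5 CPM in Naive libraries (log2 fold change -0.46). Il1r2, the decoy receptor of IL-1, had 7.78, 7.35 and 11.1 CPM in Treg and 0.138, 0 and 0 CPM in Naive libraries, a ratio of 191-fold (95% counting interval 33.9 to 7569.6).

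Proximal T cell receptor signalling genes were lower more often than higher. All 22 were tested, and 11 were called lower and 3 higher, with a median log2 fold change of -0.20. Under scaling by total counts 7 were called lower. Themis, an adaptor that sets signal strength in developing T cells, had 55.6, 48 and 48.7 CPM in Treg and 181, 185 and 180.3 CPM in Naive libraries (log2 fold change -1.84 ± 0.0794 SE, adjusted p = 4.09e-15). The co-receptor Cd4 had 446, 464 and 489 CPM in Treg and 635, 668 and 726 CPM in Naive libraries (log2 fold change -0.54 ± 0.0678 SE, adjusted p = 7.88e-07). Zap70, the kinase that binds the receptor, did not pass, with 139, 148 and 142 CPM in Treg and 137, 144 and 157 CPM in Naive libraries (adjusted p = 0.759). Cd5, a marker of self-reactivity, was among those called higher, with 338, 362 and 362 CPM in Treg and 254, 296 and 288 CPM in Naive libraries (log2 fold change 0.34 ± 0.0691 SE, adjusted p = 0.000379). Of 20 attenuators of the receptor 9 were called higher and 5 lower, or 70% called against 32.8% over all genes. Dusp4, a phosphatase of MAP kinases, had 65.5, 72.3 and 58.2 CPM in Treg and 3.45, 1.86 and 3.34 CPM in Naive libraries (log2 fold change 4.52 ± 0.162 SE, adjusted p = 1.19e-16). Spry1, a Sprouty inhibitor gene, had 32.7, 26.4 and 23.4 CPM in Treg and 3.31, 2.35 and 1.82 CPM in Naive libraries (log2 fold change 3.45 ± 0.217 SE, adjusted p = 4.67e-12). Dgka, a diacylglycerol kinase gene, was lower, with 733, 717 and 779 CPM in Treg and 1192, 1138 and 1210.0 CPM in Naive libraries (log2 fold change -0.67 ± 0.0621 SE, adjusted p = 5.41e-09). Pag1, an adaptor that brings CSK to the membrane, was lower too, with 96.4, 95 and 94.3 CPM in Treg and 171, 183 and 162 CPM in Naive libraries (log2 fold change -0.85 ± 0.0777 SE, adjusted p = 3.64e-09).

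Of 18 genes of the acute receptor response 16 were tested, and 8 were called higher and 3 lower. Without Naive replicate 1 the number called higher was 5. The orphan nuclear receptors rose in all 3 forms. Nr4a2 had 20.3, 20.3 and 23.9 CPM in Treg and 6.34, 8.92 and 6.98 CPM in Naive libraries (log2 fold change 1.52 ± 0.172 SE, adjusted p = 1.35e-07). Nr4a3 had 76, 73 and 78.2 CPM in Treg and 52.8, 43.7 and 42.3 CPM in Naive libraries (log2 fold change 0.71 ± 0.0846 SE, adjusted p = 3.16e-07). Nr4a1 had 126, 137 and 127 CPM in Treg and 96.1, 90.8 and 92.4 CPM in Naive libraries (log2 fold change 0.48 ± 0.0723 SE, adjusted p = 9.04e-06). Egr1, an early transcription factor gene, did not pass, with 97.5, 115 and 141 CPM in Treg and 98.9, 106 and 113 CPM in Naive libraries (adjusted p = 0.339). Ier2 and Fosl2 were lower, by log2 fold changes of -0.51 and -0.92. Junb was lower too, with 688, 606 and 631 CPM in Treg and 795, 780.3 and 801 CPM in Naive libraries (log2 fold change -0.30 ± 0.0822 SE, adjusted p = 0.00562), and scaling by total counts ended that call (adjusted p = 0.104 at a log2 fold change of -0.22, within 3.46e-05 to 0.104 over the alternatives). All 20 NF-kB pathway genes were tested, and 14 were called higher and 2 lower. The subunit gene Rel had 107, 96.3 and 105 CPM in Treg and 52.5, 51.1 and 49 CPM in Naive libraries (log2 fold change 1.02 ± 0.0748 SE, adjusted p = 8.70e-11). Relb had 58.2, 57.4 and 56 CPM in Treg and 27.6, 29.7 and 36 CPM in Naive libraries (log2 fold change 0.88 ± 0.0936 SE, adjusted p = 4.70e-08). Nfkb2 had 107, 111 and 107 CPM in Treg and 58.7, 58.2 and 61.2 CPM in Naive libraries (log2 fold change 0.87 ± 0.0665 SE, adjusted p = 1.63e-10). Rela did not pass, with 95.4, 96 and 92.6 CPM in Treg and 82, 91 and 84.5 CPM in Naive libraries (adjusted p = 0.136). The inhibitor genes Nfkbia and Tnfaip3 were higher too, by log2 fold changes of 0.91 and 0.81. Map3k14, which encodes the kinase NIK, and Ikbkb, which encodes IKK-beta, were lower, with log2 fold changes of -0.56 and -0.34. In this list 1 member, Rel, changed at least 2-fold.

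A receptor for lymph node entry was lower, and several receptors for tissue and follicles were higher. Of 17 chemokine receptor genes 14 were tested, and 9 were called higher and 2 lower. Ccr7, which guides cells into lymph nodes, had 111, 107 and 97.6 CPM in Treg and 230.1, 233 and 224 CPM in Naive libraries (log2 fold change -1.12 ± 0.0824 SE, adjusted p = 8.44e-11). Gpr183, a receptor for oxysterols that positions cells at the follicle edge, had 40.9, 51.8 and 49.7 CPM in Treg and 80.1, 88.2 and 89.4 CPM in Naive libraries (log2 fold change -0.86 ± 0.084 SE, adjusted p = 1.25e-08). Against these, the follicle receptor Cxcr5 had 44, 43.7 and 47.9 CPM in Treg and 3.31, 5.33 and 2.88 CPM in Naive libraries (log2 fold change 3.52 ± 0.134 SE, adjusted p = 3.56e-16). Ccr4, a skin homing receptor gene, had 31.3, 45.4 and 46.8 CPM in Treg and 0.689, 0.867 and 0.911 CPM in Naive libraries (log2 fold change 5.61 ± 0.38 SE, adjusted p = 1.90e-11). Cxcr3, the receptor of interferon-induced chemokines, had 14.8, 11.9 and 12.5 CPM in Treg and 0, 0.372 and 0 CPM in Naive libraries, a ratio of 96.1-fold (95% counting interval 32.6 to 468). Ccr2 had 9.4, 16.3 and 17.2 CPM in Treg and 0.276, 0.124 and 0 CPM in Naive libraries, a ratio of 102-fold (95% counting interval 34.7 to 498). Gpr15, a colon homing receptor gene, had 6.97, 10.1 and 8.94 CPM in Treg and 0.138, 0 and 0.152 CPM in Naive libraries, a ratio of 93.7-fold (95% counting interval 25.7 to 779). Ccr8, found on tissue Treg, had 10, 12.9 and 12.6 CPM in Treg and 0.965, 1.12 and 1.37 CPM in Naive libraries (log2 fold change 3.35 ± 0.357 SE, adjusted p = 5.16e-08). Of 18 adhesion and egress genes, all tested, 10 were called higher and 3 lower. The egress receptor S1pr1 had 281, 237 and 263 CPM in Treg and 478, 431 and 432 CPM in Naive libraries (log2 fold change -0.78 ± 0.0685 SE, adjusted p = 2.11e-09). Itgb1, the beta1 integrin chain, had 162, 176 and 187 CPM in Treg and 37, 35.2 and 38.2 CPM in Naive libraries (log2 fold change 2.25 ± 0.0778 SE, adjusted p = 6.13e-17). Icam1, the ligand of LFA-1, had 46.1, 53.8 and 55 CPM in Treg and 17.4, 19.8 and 18.1 CPM in Naive libraries (log2 fold change 1.48 ± 0.121 SE, adjusted p = 5.20e-10). The beta7 integrin chain gene Itgb7, of gut homing receptors, did not pass, with 465, 509.8 and 542 CPM in Treg and 454, 504 and 519 CPM in Naive libraries (adjusted p = 0.767).

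Both pro-survival and pro-death members of the BCL2 family were higher where they changed. Of 7 pro-survival genes 6 were tested and 6 were called higher. Bcl2 had 227, 208 and 224 CPM in Treg and 147, 131 and 141 CPM in Naive libraries (log2 fold change 0.66 ± 0.096 SE, adjusted p = 6.66e-06). Bcl2l1, which encodes BCL-XL, had 48.2, 51.8 and 52 CPM in Treg and 16.7, 17.1 and 17.6 CPM in Naive libraries (log2 fold change 1.56 ± 0.101 SE, adjusted p = 8.13e-12). Mcl1, whose product is short-lived, had 537, 534 and 555 CPM in Treg and 476, 493 and 472 CPM in Naive libraries (log2 fold change 0.18 ± 0.0611 SE, adjusted p = 0.0298) and lost its call in 5 of the 6 fits without 1 library (adjusted p 0.0581 to 0.112; it held without Naive replicate 2), and without a filter on low counts (adjusted p = 0.0566 at a log2 fold change of 0.17). Bcl2a1b and Bcl2a1d were higher too, but these near-identical copies may share reads and are uncertain. Of 11 pro-death genes 9 were tested, 4 were called higher and none lower. That is 44.4% called, against 32.8% over all genes and 45.4% in the top group by level. Pmaip1, which encodes NOXA, had 18.3, 18.5 and 17.4 CPM in Treg and 1.38, 2.23 and 1.97 CPM in Naive libraries (log2 fold change 3.26 ± 0.232 SE, adjusted p = 4.63e-11). Bid had 18.6, 15.5 and 13.8 CPM in Treg and 6.48, 7.06 and 8.04 CPM in Naive libraries (log2 fold change 1.15 ± 0.164 SE, adjusted p = 4.67e-06). The pore-forming effectors Bax and Bak1 were higher by log2 fold changes of 0.51 and 0.45. Bcl2l11, which encodes BIM and is named in the series title (chromosome 2, 128126038 to 128162547), had 56, 59.9 and 62.1 CPM in Treg and 46.1, 55.4 and 50.8 CPM in Naive libraries and did not pass (log2 fold change 0.22 ± 0.0898 SE, adjusted p = 0.0619). Bcl2l11 was called when Naive replicate 2 was left out (adjusted p = 0.0348 at a log2 fold change of 0.29) and with the replicate number as a block (adjusted p = 0.0428 at a log2 fold change of 0.22). It was also called in a fit of the 2 subsets alone (adjusted p = 0.0289 at a log2 fold change of 0.22) and under scaling by total counts (adjusted p = 0.0177 at a log2 fold change of 0.31), and its adjusted p reached 0.268 over the alternatives. Bbc3, which encodes PUMA, did not pass either, with 15, 15.7 and 17 CPM in Treg and 13.6, 15 and 16.8 CPM in Naive libraries (adjusted p = 0.767).

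Genes of helper lineages were more often higher than lower in Treg. For Th1 and cytotoxic genes 7 of 13 tested members were called higher and 3 lower. Of Th2 genes 4 of 6 were called higher, of Th17 genes 3 of 4 and of follicular helper genes 7 of 9, with none lower. Under 8 of the 15 alternatives 1 Th2 gene was called lower, among them DESeq2, limma voom, the replicate block and the fits without Naive replicate 1 or Treg replicate 3. Tbx21, the Th1 factor T-bet, had 4.14, 4.18 and 2.47 CPM in Treg and 0.138, 1.61 and 0.152 CPM in Naive libraries (log2 fold change 2.38 ± 0.446 SE, adjusted p = 0.000164). Ccl5, a chemokine gene of Th1 and cytotoxic cells, had 5.66, 6.59 and 4.94 CPM in Treg and 0.551, 1.49 and 0.911 CPM in Naive libraries (log2 fold change 2.49 ± 0.332 SE, adjusted p = 1.79e-06). Gata3, the Th2 factor, had 137, 139 and 134 CPM in Treg and 66.2, 65.6 and 66.3 CPM in Naive libraries (log2 fold change 1.05 ± 0.073 SE, adjusted p = 3.24e-11). Rora, a nuclear receptor gene of Th17 and innate-like cells, had 36.6, 35.1 and 34.2 CPM in Treg and 12, 6.32 and 8.95 CPM in Naive libraries (log2 fold change 1.97 ± 0.151 SE, adjusted p = 1.83e-10). Effector cytokine genes were near 0. Ifng had 0.909, 0.507 and 1.29 CPM in Treg and 0 in each Naive library, and Il17a, Il22, Il5 and Il13 had 0 counts in all 6 libraries. Il4 had 0 counts in Treg and 2 in Naive libraries. Bcl6, the follicular helper factor, did not pass, with 26.1, 24.6 and 22.6 CPM in Treg and 20.5, 19 and 21.4 CPM in Naive libraries (adjusted p = 0.0519), and was called higher under total counts scaling, the 5 CPM filter, the replicate block and when Treg replicate 3 was left out (adjusted p = 0.0403 at a log2 fold change of 0.32). Fasl, a death ligand gene, was lower, with 3.33, 2.66 and 4.59 CPM in Treg and 5.93, 6.57 and 5.31 CPM in Naive libraries (log2 fold change -0.75 ± 0.201 SE, adjusted p = 0.00518).

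Cell cycle genes were mostly higher, with 17 of 21 called higher and none lower and a median log2 fold change of 1.99. With the replicate block, and in the fit of the 2 subsets alone, 1 was called lower. Mki67, the Ki-67 gene of dividing cells, had 63.5, 70.6 and 67.8 CPM in Treg and 2.76, 4.21 and 3.34 CPM in Naive libraries (log2 fold change 4.27 ± 0.195 SE, adjusted p = 1.22e-14). Top2a, which untangles DNA before mitosis, had 48.1, 51.7 and 52.2 CPM in Treg and 8.41, 9.29 and 6.83 CPM in Naive libraries (log2 fold change 2.62 ± 0.15 SE, adjusted p = 8.71e-13). Of the replication helicase genes Mcm6 had 112, 119 and 109.6 CPM in Treg and 55.4, 60.5 and 59 CPM in Naive libraries (log2 fold change 0.96 ± 0.07 SE, adjusted p = 7.34e-11). Pcna, the sliding clamp of replication, was among the 4 that did not pass, with 77, 60.4 and 64 CPM in Treg and 77.8, 64.4 and 65 CPM in Naive libraries (adjusted p = 0.804). Among histone genes, 34 of 55 were called higher and 2 lower, with a median log2 fold change of 1.01. Of 15 tested glycolysis genes 7 were called higher and none lower. That is 46.7% called, against 32.8% over all genes and 45.4% in the top group by level. Leaving out Naive replicate 1 gave 2 glycolysis genes called lower, while leaving out Treg replicate 3 or removing ribosomal and small RNA gave 1. Slc2a3, a glucose transporter gene, had 94, 97.7 and 98.3 CPM in Treg and 39, 33.7 and 30.8 CPM in Naive libraries (log2 fold change 1.48 ± 0.0871 SE, adjusted p = 1.39e-12). Hk2, the inducible hexokinase gene, had 9.09, 9.25 and 7.41 CPM in Treg and 0.276, 0.744 and 0.152 CPM in Naive libraries (log2 fold change 4.34 ± 0.347 SE, adjusted p = 3.87e-10). Tpi1 and Gpi1, isomerases of the pathway, were called higher by log2 fold changes of 0.55 and 0.21, and leaving out Naive replicate 1 (adjusted p = 0.0588 at a log2 fold change of 0.18) or Treg replicate 3 (adjusted p = 0.0693 at a log2 fold change of 0.18) ended the Gpi1 call. The other enzymes tested beyond hexokinase, 8 in number with Gapdh and Ldha among them, did not pass. Gapdh had 46.9, 48.9 and 47.1 CPM in Treg and 47.6, 43.1 and 50.8 CPM in Naive libraries (adjusted p = 0.91). Ldha, lactate dehydrogenase A, had 181, 197 and 199 CPM in Treg and 182, 204 and 191 CPM in Naive libraries (adjusted p = 0.999). In the cholesterol list 16 of 20 members did not pass, 2 were called higher and 2 lower, or 20% called against 32.8% over all genes. For that list, leaving out Naive replicate 1, Treg replicate 1 or Naive replicate 2 gave 1 call in each direction, Treg replicate 3 gave 1 higher, and Treg replicate 2 gave 1 lower. DESeq2 also gave 1 higher, and scaling by total counts 1 lower.

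Interferon response genes went both ways, with 8 of 23 called higher and 5 lower, or 56.5% called against 32.8% over all genes. Leaving out Treg replicate 1 gave 4 called higher, and leaving out Naive replicate 3 gave 5. Mx1, an antiviral GTPase gene, had 9.8, 13.3 and 9.05 CPM in Treg and 3.45, 3.84 and 3.95 CPM in Naive libraries (log2 fold change 1.51 ± 0.227 SE, adjusted p = 1.05e-05). Gbp2, a guanylate-binding protein gene with near-identical copies, had 116, 117 and 112 CPM in Treg and 58, 69.1 and 63.4 CPM in Naive libraries (log2 fold change 0.86 ± 0.093 SE, adjusted p = 7.08e-08). Oas2, an oligoadenylate synthetase gene, was lower, with 6.37, 7.98 and 6.35 CPM in Treg and 20.3, 32.8 and 28.7 CPM in Naive libraries (log2 fold change -1.99 ± 0.167 SE, adjusted p = 9.34e-10). Its relative Oasl2 was lower too, with 11.4, 9.88 and 12.3 CPM in Treg and 20, 24.4 and 24.4 CPM in Naive libraries (log2 fold change -1.03 ± 0.164 SE, adjusted p = 2.22e-05). Isg15, a ubiquitin-like protein gene that interferons are known to induce, did not pass, with 9.2, 12.9 and 14 CPM in Treg and 10.1, 12.9 and 13.5 CPM in Naive libraries (adjusted p = 0.956).

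**Figure D3:**
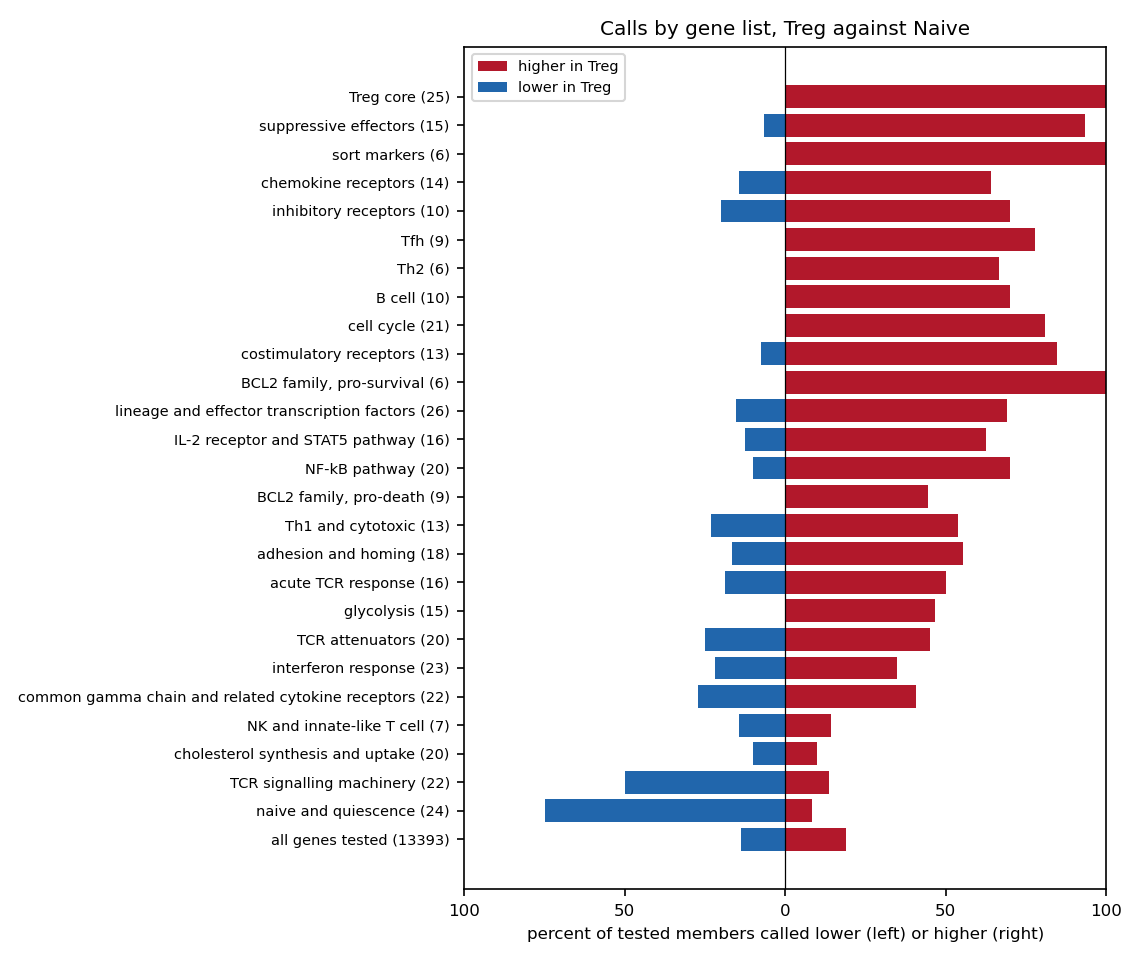
Percent of the tested members of each gene list called higher in Treg (red, to the right) or lower in Treg (blue, to the left), with the number of tested members in brackets and all 13393 tested genes at the bottom. The Treg core and pro-survival lists lie fully to the right, the naive and quiescence and the TCR signalling lists mostly to the left; the sort marker list was in part chosen by the gates.

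Gene classes given by name or annotation were read against the 32.8% called over all genes. Of 81 ribosomal protein genes 44 were called lower and 1 higher in Treg, with a median log2 fold change of -0.23, and none passed 2-fold. Scaling by total counts left 31 called lower, and without Naive replicate 2 or Treg replicate 2 none was called higher. Segments of the T cell receptor alpha locus were lower, with 11 of 38 variable and 20 of 44 joining segments called lower and none higher (median log2 fold change -0.71 and -0.80). Of 21 beta variable segments 2 were called higher and 1 lower, and of 12 beta joining segments none passed. Over all receptor segments by biotype, 31 were called lower. With at least 5 CPM in 3 libraries as the filter, 14 were. Leaving out Naive replicate 1 gave 19, Treg replicate 1 or Naive replicate 2 gave 18, and Treg replicate 3 gave 17. Long intergenic RNAs were called higher in 40 and lower in 31 of 259 cases (27.4% called), and antisense RNAs higher in 20 and lower in 29 of 242 (20.2%), both below the share over all genes. Solute carrier genes were called higher in 48 and lower in 27 of 176 cases (42.6%). Zinc finger genes with Zfp names were called higher in 33 and lower in 32 of 306 cases, or 21.2% against 32.8% over all genes.

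The other sorted subsets place these differences. Against Teff, 3894 of the 13393 genes (29.1%) were called, with 2006 higher (15%) and 1888 lower (14.1%) in Treg. Against Anergic cells 4150 (31%) were called, with 2054 higher (15.3%) and 2096 lower (15.6%). All these comparisons share the Treg libraries, so their values are set side by side only. Of the 10 highest genes 9 were also higher than in Teff, 8 higher than in Anergic cells and 7 higher than in both. Lrrc32 had a mean of 232 ± 7.89 CPM in Treg, 4.05 ± 0.783 CPM in Anergic cells and 0 CPM in Teff and Naive cells (SD, n = 3). Itgae had 127 ± 23.4 CPM in Treg, 7.68 ± 2.01 CPM in Anergic, 7.22 ± 3.78 CPM in Teff and 0.143 ± 0.138 CPM in Naive cells. Other genes of the 10 also stood high in a second subset. Penk had 45.5 ± 4.16 CPM in Treg and 38.3 ± 11.7 CPM in Anergic cells (log2 fold change 0.25 ± 0.148 SE, adjusted p = 0.223). Fam160a1 had 17 ± 2.5 CPM in Treg and 19.1 ± 7.49 CPM in Anergic cells (log2 fold change -0.18 ± 0.208 SE, adjusted p = 0.568). Neither gene passed that test. Fgl2 was lower in Treg than in Teff, with 21.8 ± 3.06 CPM in Treg and 33.6 ± 2.57 CPM in Teff (log2 fold change -0.62 ± 0.13 SE, adjusted p = 0.000587). Il2rb did not pass against Teff, with 556 ± 10.5 CPM in Treg and 544 ± 1.45 CPM in Teff (log2 fold change 0.03 ± 0.0655 SE, adjusted p = 0.777). Ahnak was lower in Treg than in both CD44high subsets, with 787 ± 48.3 CPM in Treg, 1615 ± 151 CPM in Anergic and 1666 ± 118 CPM in Teff cells (log2 fold change -1.04 and -1.08, both called). Mki67 was also lower than in both, with 67.3 ± 3.58 CPM in Treg, 102 ± 25.8 CPM in Anergic and 144 ± 15.4 CPM in Teff cells (log2 fold change -0.59 and -1.10, both called). Itgb8, Tigit, Pdcd1 and Cxcr5 were lower in Treg than in Anergic cells (log2 fold change -0.71, -0.73, -2.14 and -1.52, all called). Tnfrsf4, Tnfrsf9 and Cish were higher in Treg than in Anergic cells (log2 fold change 0.96, 1.42 and 2.65, all called).

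Of the 10 lowest genes 10 were also lower than in Teff, and 8 lower than in Anergic cells. Pde3b had 11.8 ± 2.23 CPM in Treg, 106 ± 27.2 CPM in Anergic, 311 ± 11.4 CPM in Teff and 257 ± 19.7 CPM in Naive cells (SD, n = 3 each). Themis was likewise lowest in Treg, with 50.8 ± 4.19 CPM in Treg, 173 ± 18.7 CPM in Anergic, 208 ± 5.49 CPM in Teff and 182 ± 2.42 CPM in Naive cells. Pdlim4 did not pass against Anergic cells (log2 fold change 0.04 ± 0.631 SE, adjusted p = 0.973). Slc16a5 did not pass against them either (log2 fold change -0.28 ± 0.296 SE, adjusted p = 0.521). For Satb1 Treg lay above Anergic cells (log2 fold change 1.58 ± 0.101 SE, adjusted p = 9.06e-12) and did not pass against Teff (log2 fold change -0.20 ± 0.0966 SE, adjusted p = 0.127). Igfbp4 was higher in Treg than in Teff (log2 fold change 1.74 ± 0.143 SE, adjusted p = 7.61e-10) and Anergic cells (log2 fold change 2.50 ± 0.152 SE, adjusted p = 3.78e-12), though lower than in Naive. Tcf7 was lower in Treg than in every other subset, with 576 ± 28.8 CPM in Treg, 1626 ± 69.3 CPM in Anergic, 1117 ± 52.3 CPM in Teff and 1880.3 ± 36 CPM in Naive cells.

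**Figure D4:**
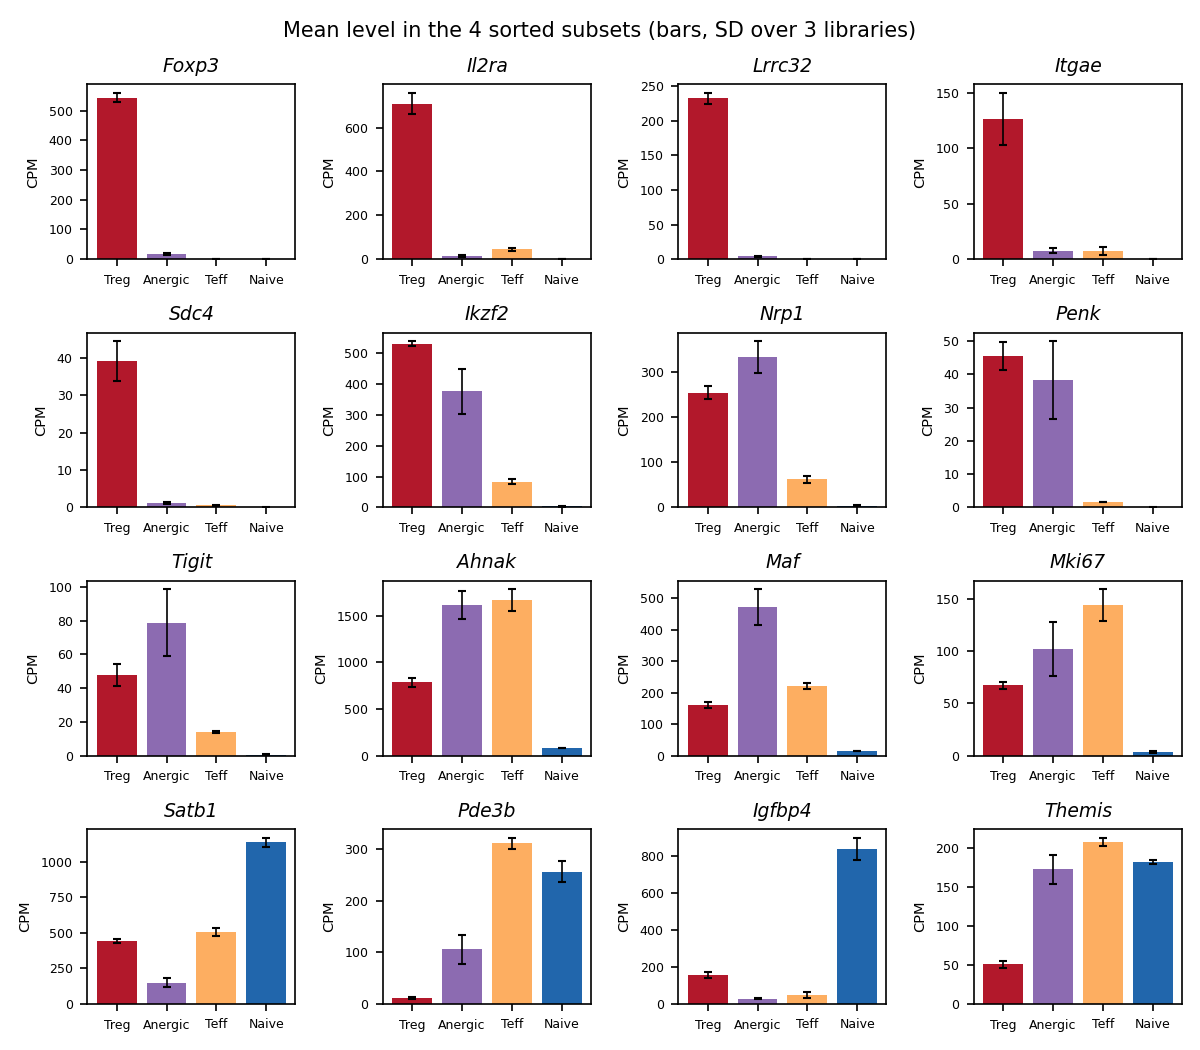
Mean CPM of 16 genes in Treg, Anergic, Teff and Naive cells (bars), with the SD over 3 libraries (error bars). Foxp3, Il2ra, Lrrc32, Itgae and Sdc4 stand high in Treg, Ikzf2, Nrp1, Penk and Tigit also in Anergic cells, Ahnak, Maf and Mki67 are higher in the CD44high subsets than in Treg, and Pde3b and Themis are lowest in Treg.

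Markers of other cells were checked as whole lists. B cell genes summed to 477 to 563 CPM in Treg and 209 to 242 CPM in Naive libraries, and of its 16 genes 10 were tested and 7 called higher. Most of the sum was Ighm, with 398, 441 and 488 CPM in Treg and 195, 224 and 222 CPM in Naive libraries (log2 fold change 1.05 ± 0.091 SE, adjusted p = 1.56e-09), and the others called higher were Cd22, Cd79b, Igkc, Ighd, H2-Aa and Cd74. Cd79b, a signalling chain of the B cell receptor, had 6.06, 6.33 and 5.53 CPM in Treg and 0.689, 0.62 and 0.607 CPM in Naive libraries (log2 fold change 3.19 ± 0.35 SE, adjusted p = 8.01e-08). Ms4a1, which encodes CD20 and was under the filter, had 5, 2 and 0 counts in Treg and 1, 1 and 0 counts in Naive libraries. Cd74, which antigen-presenting cells express, had 29.5, 34.2 and 39 CPM in Treg and 4.96, 4.46 and 7.13 CPM in Naive libraries (log2 fold change 2.64 ± 0.166 SE, adjusted p = 4.65e-12). Myeloid and dendritic genes summed to 34.2 to 35.6 CPM in Treg and 23.3 to 26 CPM in Naive libraries, mostly Cst3, and of 13 genes 4 were tested, 2 called higher and 1 lower. Plasma cell genes summed to 51.7 to 52.7 CPM in Treg and 31.4 to 33.7 CPM in Naive libraries, mostly Xbp1, and of 5 genes 2 were tested and called higher. NK and innate-like genes summed to 4.55 to 5.83 CPM in Treg and 8.04 to 8.55 CPM in Naive libraries, with Klra1 and Klri2 at 0, and of 10 genes 7 were tested, 1 called higher and 1 lower. CD8 genes summed to 9.88 to 11.8 CPM in Treg and 12.6 to 17.1 CPM in Naive libraries, mostly Cd8b1, and 1 of 2 genes was tested and called lower. Erythroid and platelet genes reached 0.606 to 0.823 CPM in Treg and 0.124 to 1.06 CPM in Naive libraries, and none of 7 was tested. Stromal and endothelial genes summed to 163 to 176 CPM in Treg and 208 to 220 CPM in Naive libraries, nearly all Pecam1, with Pdgfra at 0, and of 9 genes 2 were tested, 1 called higher and 1 lower. Epcam, an epithelial adhesion gene in that list, had 9.4, 13.4 and 11.5 CPM in Treg and 0.827, 1.12 and 0.911 CPM in Naive libraries (log2 fold change 3.55 ± 0.368 SE, adjusted p = 3.28e-08). Leaving out Naive replicate 1 or Treg replicate 2 ended the call in the CD8 list, and leaving out Naive replicate 2 or Treg replicate 3 ended the higher call in the NK list, as limma voom did. The part of such cells in the differences above was not tested.

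Libraries of 1 subset were close for most genes, with a median SD of log2 CPM of 0.09 in Treg (7844 genes) and 0.10 in Naive (7616 genes). Of the 5 genes with the largest spread at 10 CPM or more in each subset, 3 were the same in both: Hspa1a, Hspa1b and Slc15a2. The heat shock genes Hspa1a and Hspa1b encode inducible HSP70 and share near-identical sequence. Hspa1a had 40.2, 152 and 183 CPM in Treg and 80.5, 323 and 347 CPM in Naive libraries. Hspa1b had 109, 306 and 359.5 CPM in Treg and 188, 624 and 634 CPM in Naive libraries. Library 1 was lowest in both subsets for both genes. Hspa1a did not pass (adjusted p = 0.101), but it was called lower when Naive replicate 1 was left out (adjusted p = 0.012 at a log2 fold change of -1.43). Hspa1b did not pass either (adjusted p = 0.0793), and leaving out Naive replicate 1 (adjusted p = 0.00695 at a log2 fold change of -1.29) or Treg replicate 3 (adjusted p = 0.0444 at a log2 fold change of -1.22) made it pass. Fosb, an immediate early gene, also had its lowest value in library 1 of each subset, with 140.2, 211 and 314 CPM in Treg and 54.9, 116 and 192 CPM in Naive libraries. It was called higher (log2 fold change 0.88 ± 0.279 SE, adjusted p = 0.0174), and leaving out Naive replicate 1 (adjusted p = 0.107 at a log2 fold change of 0.53), Naive replicate 2 (adjusted p = 0.0615 at a log2 fold change of 0.85) or Treg replicate 3 (adjusted p = 0.182 at a log2 fold change of 0.54) ended the call, as DESeq2 did (adjusted p = 0.155 at a log2 fold change of 0.86). Slc15a2, a peptide transporter gene, was lowest in library 2 of each subset, with 33.6, 10 and 42 CPM in Treg and 25.9, 7.31 and 25.5 CPM in Naive libraries, and did not pass (adjusted p = 0.409). Wdfy4 spread in Treg, with 30.3, 29 and 13.2 CPM in Treg and 11.9, 21.1 and 10.6 CPM in Naive libraries, and did not pass (adjusted p = 0.0544). It was called higher when Naive replicate 2 (adjusted p = 0.0114 at a log2 fold change of 1.10) or Treg replicate 3 (adjusted p = 0.00421 at a log2 fold change of 1.01) was left out. Hspa1a, Hspa1b and Wdfy4 were also called with the replicate block, in the fit of the 2 subsets alone and without a filter on low counts, and Wdfy4 under scaling by total counts and with ribosomal and small RNA removed. Why libraries with the same number were alike in these genes was not tested.

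**Figure D5:**
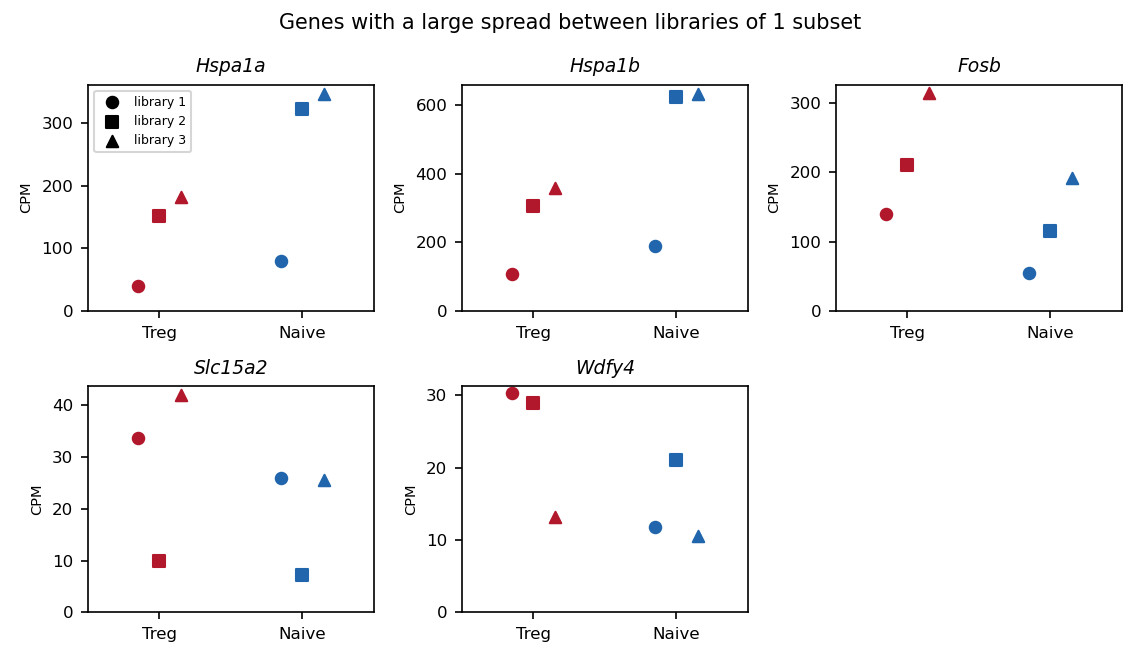
CPM of 5 genes with a large spread among libraries of 1 subset (Cep112 is in the plot of the highest genes), with circles, squares and triangles for libraries 1, 2 and 3 of Treg (red, left) and Naive (blue, right). Hspa1a, Hspa1b and Fosb are lowest in library 1, and Slc15a2 in library 2, of both subsets.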

How the data were processed

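Raw read counts per gene are whole numbers in 1 table of 12 libraries, as deposited. QIAGEN's RNeasy kit served for RNA extraction, and libraries were stranded total RNA libraries of Takara's SMARTer Pico kit, per the labels. The authors, by the design text, processed reads with the CHURP pipeline, built on Trimmomatic, HISAT2, SAMtools, featureCounts and edgeR. The submitters' processing notes name HISAT2, featureCounts and the build GRCm38. Neither annotation nor strand setting is given in the sources used here. Reads of antisense neighbours therefore cannot be told apart from a gene's own. Names matched 1 GENCODE M21 gene for 13289 of the 13393 tested genes. Genes were filtered with filterByExpr and scaled by TMM, and subset means of all 12 libraries were fitted by the quasi-likelihood F test of edgeR 4.0.16 (R 4.3.3), with Benjamini-Hochberg adjustment over all tested genes and a call at an adjusted p under 0.05. All adjusted p-values in the text are from edgeR unless another tool is named. Scripts were tested on simulated data. Alternatives used DESeq2 1.42.0, limma 3.58.1 (voom), other scalings and filters, a replicate block, the 2 compared subsets alone and leaving out each library. The 144 genes named by rule were the sort markers, the 10 highest and 10 lowest fold changes at 10 CPM or more without overlap, the 5 largest CPM differences each way, up to 3 risen and 3 fallen members of each list by adjusted p, the 5 genes of largest spread in each subset, and Batf and Bcl2l11. The ranks left out predicted, RIKEN, ribosomal, mitochondrial, small RNA, pseudogene and receptor segment names. A further 66 list members were described after their values were seen. Some genes that met the rule are not reported here. Members and lists were chosen with earlier results of these data known.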

Additional observations from a re-analysis of the deposited data

How the results depend on the processing

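Of 210 genes that met the rule or were added to it, 186 kept their side of the threshold under every alternative that gave them a value, and the other 24 changed sides under at least 1. No called gene changed direction, but 8 genes that did not pass lay near 0 and had both signs: Bbc3, Cd3e, Gapdh, Isg15, Itgb7, Ldha, Pcna and Zap70. Scaling by total counts alone gave 1126 genes called lower in Treg than in Naive in place of 1858, and 1324 lower in Treg than in Anergic in place of 2096. The other counts of genes stayed within 1.5 times: the total for Treg against Naive was 4021 with DESeq2, 4315 with limma voom, 4433 without a filter and 3785 to 3951 with 1 library left out. With the 2 compared subsets fitted alone, that total was 4530. Among named genes, scaling by total counts changed the most calls, with 4 gained and 10 lost. Besides those given in the report, scaling by total counts ended the calls of S1pr4, Lss and Il18r1, and Il18r1, Fdft1, Lss, Cd8b1 and Klrb1c lost theirs in some fits without 1 library. The fold changes of genes at or near 0 in Naive are limited by depth, and genes under the filter could not be tested.

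The labels do not say whether replicate numbers pair the samples, and the main fit did not pair them. Deviations of same-numbered Treg and Naive libraries correlated at 0.228, 0.146 and 0.0741 over 7859 genes. Those of different numbers correlated at -0.16 to 0.0232, so each Treg library correlated best with the Naive library of its own number. A pairing can be neither stated nor excluded from these values. With the replicate number as a block, 4796 genes were called in Treg against Naive, and Bcl2l11, Hspa1a, Hspa1b, Slc15a2, Wdfy4, Stat5b and Bcl6 were called.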

Other observations

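Further genes of the Treg core and of neighbouring lists also differed between Treg and Naive. Gpr83, an orphan receptor gene of Treg, had 109, 118 and 111 CPM in Treg and 7.03, 7.31 and 8.5 CPM in Naive libraries (log2 fold change 3.89 ± 0.102 SE, adjusted p = 2.93e-19 by edgeR). Capg, an actin filament capping protein gene, had 124, 139 and 138 CPM in Treg and 15.2, 15.1 and 18.2 CPM in Naive libraries (log2 fold change 3.05 ± 0.125 SE, adjusted p = 1.69e-15). Swap70, a signalling protein that binds phosphoinositides, had 112, 130.2 and 132 CPM in Treg and 9.51, 8.43 and 7.74 CPM in Naive libraries (log2 fold change 3.86 ± 0.109 SE, adjusted p = 1.62e-18). Plagl1, an imprinted zinc finger gene, had 16, 19.4 and 20.2 CPM in Treg and 0.276, 0.124 and 0.455 CPM in Naive libraries (log2 fold change 6.00 ± 0.399 SE, adjusted p = 1.37e-11). None of these genes overlapped between the subsets. Areg, which encodes the tissue repair factor amphiregulin, had 4.45, 2.53 and 2.59 CPM in Treg and 0.138, 0.124 and 0 CPM in Naive libraries, a ratio of 35.8-fold (95% counting interval 9.62 to 301). Tnfrsf8, which encodes CD30, had 8.39, 9.88 and 11.4 CPM in Treg and 0, 0 and 0.304 CPM in Naive libraries, a ratio of 107-fold (95% counting interval 29.5 to 892). Cd200, which encodes an inhibitory ligand, had 29.4, 33.2 and 25.6 CPM in Treg and 4.69, 5.95 and 5.31 CPM in Naive libraries (log2 fold change 2.46 ± 0.134 SE, adjusted p = 3.87e-13).

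Among transcription factors, Irf8, better known from myeloid and B cells, had 27.7, 27.7 and 21.6 CPM in Treg and 4.83, 3.84 and 5.16 CPM in Naive libraries (log2 fold change 2.49 ± 0.153 SE, adjusted p = 3.23e-12). Nfil3, a basic leucine zipper factor, had 13.9, 16.2 and 18.3 CPM in Treg and 1.79, 1.98 and 1.21 CPM in Naive libraries (log2 fold change 3.25 ± 0.274 SE, adjusted p = 9.89e-10). In the other direction, Nsg2, a vesicle protein of neurons that naive T cells also transcribe, had 199.6, 178 and 179 CPM in Treg and 228, 231 and 241 CPM in Naive libraries (log2 fold change -0.33 ± 0.0744 SE, adjusted p = 0.0011). Pecam1, which encodes the adhesion molecule CD31, had 166, 149 and 161 CPM in Treg and 207, 219 and 208 CPM in Naive libraries (log2 fold change -0.41 ± 0.0653 SE, adjusted p = 1.88e-05). Icam2, another adhesion molecule gene, had 24.9, 38 and 24.8 CPM in Treg and 41.2, 46.8 and 42 CPM in Naive libraries (log2 fold change -0.58 ± 0.136 SE, adjusted p = 0.00164).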
